A study of Rattus norvegicus with 14 samples.

Results

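The effect of the BET bromodomain inhibitor JQ1 on gene expression in neonatal rat ventricular myocytes (NRVM) was compared between 48 h and 6 h of phenylephrine (PE). For every gene, the difference between JQ1 and its vehicle DMSO at 6 h was subtracted from the same difference at 48 h, on the log2 scale. This value is called the difference of JQ1 effects. It is negative where JQ1 lowered a gene more, or raised it less, at 48 h than at 6 h. Group means per gene were taken from the array titles, with the brightest probe set of each gene symbol, and 11 of the 14 arrays entered them. All cells came from ventricles of Sprague-Dawley pups 2 days old. Non-myocytes were reduced by pre-plating, and the cultures were kept in serum-free medium before treatment. At 6 h of PE there were 2 arrays of DMSO-treated and 3 of JQ1-treated cells. At 48 h of PE there were 3 arrays of each. PE was used at 100 µM in all 4 groups. The remaining 3 arrays, DMSO for 90 min without PE, contributed only to the estimate of spread. None of the 14 arrays was without PE at 6 h or 48 h. Time in culture and the lengths of PE and of JQ1 or DMSO exposure changed together, so their parts cannot be told apart. The protocol in the labels puts JQ1 or DMSO 6 h before PE, while the series' design text puts PE first, so the order is not settled. No JQ1 concentration is given in the sources used here. The labels do not say whether replicate arrays represent different cultures. All p-values are therefore relative to array-to-array spread, which may be technical.

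BET proteins bind acetylated histones through their bromodomains and bring the elongation kinase P-TEFb to promoters and enhancers, where it releases paused RNA polymerase II. JQ1 occupies the acetyl-lysine pocket and displaces them. PE activates alpha1-adrenergic receptors and makes cultured ventricular myocytes enlarge, with a programme of early transcription factor genes, later fetal and cytoskeletal genes, and paracrine signals that also reach fibroblasts in the dish.

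Log2 expression of 13184 genes was read from the arrays. A gene was called where the adjusted p of the limma fit (Benjamini-Hochberg over all genes) was under 0.05, and errors are standard errors (SE) of that fit. The median SE of the difference was 0.0906. Replicate arrays had pairwise r between 0.9976 and 0.9986. Array medians were 7.28 to 7.32 in the JQ1 groups and 7.36 to 7.43 in the DMSO groups with PE. A group mean below log2 6.23, the 30th percentile of all genes, is called dim here, and a change to or from a dim level is uncertain in size. None of the 15 cardiomyocyte markers measured was dim in the DMSO groups and 1 was dim in JQ1 at 48 h. By contrast, 11 of 16 endothelial and 10 of 19 leukocyte markers were dim in all 4 groups. All 19 fibroblast markers were above the dim limit in both DMSO groups, so the cultures held RNA of fibroblast type genes at both times. In such bulk samples fewer cells of a type and less RNA per cell cannot be told apart.

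The JQ1 effect differed between the times in 5111 genes. The difference was higher in 2695 genes (20.4% of all tested) and lower in 2416 (18.3%), with a median over all genes of 0.0058. Of these, 115 were higher and 342 lower by at least 1 log2 unit. At 6 h, JQ1 raised 3362 genes (25.5%) and lowered 3794 (28.8%), and at 48 h it raised 3957 (30%) and lowered 3901 (29.6%). The 6 h contrast had 2 DMSO arrays and a median SE of 0.0675, against 0.0604 at 48 h. Calls were therefore somewhat harder to reach at 6 h. The 2 effects correlated across genes at r = 0.697, and they had the same sign in 71.9% of genes (genes are not independent replicates). Most of the genes called at both times, 4942 of 5580, went the same way, and 638 went opposite ways. No gene changed by at least 1 log2 unit in opposite directions at the 2 times. The counts given for each gene list below are to be read against these shares of all genes.

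Genes with a called difference fell into several courses. JQ1 lowered 803 genes at both times and more at 48 h, with a median effect of -0.48 at 6 h and -1.21 at 48 h. It lowered 511 genes at both times but less at 48 h, with medians of -0.77 and -0.35. It raised 510 genes at both times and more at 48 h, a count that became 828 when each array was centred on its own median, and raised 346 less at 48 h. The effect turned from a rise to a fall in 266 genes and from a fall to a rise in 372. In 530 genes JQ1 lowered expression at 6 h with no call at 48 h, and in 410 it raised expression at 6 h with no call at 48 h. A further 567 genes were called as lowered at 48 h and not at 6 h, 743 as raised at 48 h and not at 6 h, and 53 at neither time.

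**Figure D1:**
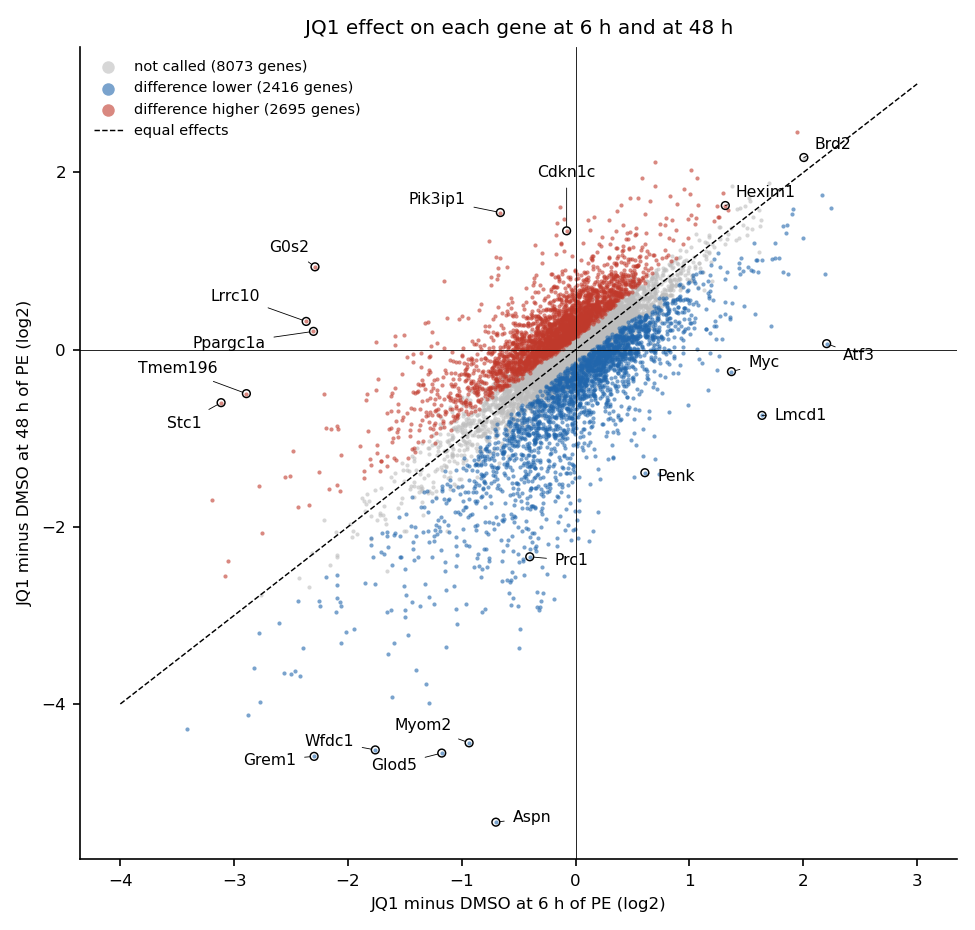
Each point is 1 of 13184 genes, with the JQ1 effect at 6 h on the x axis and at 48 h on the y axis (log2, group means of 2 or 3 arrays). Red and blue points have a called higher (2695) or lower (2416) difference, grey points are not called, and the dashed line marks equal effects. Brd2 lies near the line with effects of 2.00 and 2.17, Aspn far below it and G0s2 far above it.

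The same difference can be read along time within each arm. From 6 h to 48 h of PE, 2144 genes (16.3% of all tested) rose in the DMSO arm and 2421 (18.4%) fell. With JQ1 present, 3584 genes (27.2%) rose and 3485 (26.4%) fell over the same interval. The 2 time courses correlated across genes at r = 0.392. DMSO at 6 h had 2 arrays, and the median SE was 0.0675 in the DMSO arm and 0.0604 in the JQ1 arm. Calls were therefore somewhat harder to reach in the DMSO arm. Among the 2695 genes with a higher difference, 1355 (50.3%) rose with time in the JQ1 arm with no call in the DMSO arm. Another 345 fell in DMSO and rose in JQ1, and 503 rose in both. Among the 2416 with a lower difference, 972 (40.2%) fell with time in JQ1 with no call in DMSO, 581 fell in both, and 348 rose in DMSO and fell in JQ1. The larger change with time lay in the JQ1 arm for 77.4% of the higher and 71.5% of the lower genes.

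Genes of chromosome segregation and cell division were the group in which the difference was lower in every measured member. All 36 genes of mitosis and the spindle were called lower (18.3% of all genes were), with a median difference of -1.52 and single genes from -2.13 to -0.40. At 6 h JQ1 lowered 24 of them and raised 1, with a median of -0.38. At 48 h it lowered all 36, with a median of -1.81. In DMSO all 36 rose between 6 h and 48 h (median 1.31), and in JQ1 25 fell and 3 rose (median -0.25). Prc1, a protein that bundles the microtubules of the central spindle, measured 9.86 and 9.85 in DMSO and 9.51, 9.43 and 9.42 in JQ1 at 6 h. At 48 h it measured 11.12, 11.18 and 11.09 in DMSO and 8.79, 8.78 and 8.81 in JQ1. The DMSO arrays at 48 h were the highest and the JQ1 arrays at 48 h the lowest, with no overlap between any groups, and the difference was -1.94 ± 0.059 (limma adjusted p = 1.28e-09). Kif20a, a kinesin of cytokinesis, had a JQ1 effect of -0.50 ± 0.054 at 6 h and -2.39 ± 0.048 at 48 h. Ect2, the exchange factor that activates RhoA at the cleavage furrow, went from -0.46 ± 0.062 to -2.54 ± 0.055, the largest difference of these 4 genes (-2.09 ± 0.083). Cdca8, the borealin subunit of the chromosomal passenger complex, went from -0.51 ± 0.045 to -2.0 ± 0.040. Markers of fibroblasts, which can divide in such cultures, fell in the JQ1 arm over the same interval (values beside the matrix genes). Their part in the mitotic result was not tested.

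The 4 mitotic genes named above are shown with the 250 bases before their RefSeq gene start (GRCr8), because their genes moved together and a pair of short motifs is known from promoters of this class. Capitals mark the CHR (cell cycle genes homology region, searched as TTTGAA and TTCGAA) and the CCAAT box (CCAAT), on both strands. The stretches are at chr1:143659231-143659480, plus strand, at chr18:26504172-26504421, plus strand, at chr2:111966627-111966876, minus strand and at chr5:142483200-142483449, minus strand.
Prc1: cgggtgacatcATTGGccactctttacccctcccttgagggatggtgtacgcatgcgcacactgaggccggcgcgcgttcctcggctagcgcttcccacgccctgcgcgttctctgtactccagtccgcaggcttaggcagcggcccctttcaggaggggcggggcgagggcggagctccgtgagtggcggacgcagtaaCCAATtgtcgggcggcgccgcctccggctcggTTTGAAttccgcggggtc
Kif20a: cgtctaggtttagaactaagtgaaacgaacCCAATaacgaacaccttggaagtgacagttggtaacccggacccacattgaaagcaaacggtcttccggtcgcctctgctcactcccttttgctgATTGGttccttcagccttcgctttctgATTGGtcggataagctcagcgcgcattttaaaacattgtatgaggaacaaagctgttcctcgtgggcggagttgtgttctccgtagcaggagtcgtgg
Ect2: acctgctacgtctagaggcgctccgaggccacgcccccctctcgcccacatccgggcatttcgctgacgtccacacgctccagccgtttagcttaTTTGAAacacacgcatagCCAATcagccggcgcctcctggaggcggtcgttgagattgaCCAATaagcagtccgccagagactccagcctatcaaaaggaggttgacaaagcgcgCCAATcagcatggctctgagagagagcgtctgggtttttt
Cdca8: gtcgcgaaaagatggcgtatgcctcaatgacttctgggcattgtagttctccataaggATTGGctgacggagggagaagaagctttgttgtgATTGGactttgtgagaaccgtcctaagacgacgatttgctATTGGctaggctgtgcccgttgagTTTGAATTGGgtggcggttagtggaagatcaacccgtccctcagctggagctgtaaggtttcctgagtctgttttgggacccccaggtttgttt
In Prc1 the CHR starts 18 bases before the gene start and the nearer CCAAT box 50 bases before it. Ect2 has CCAAT boxes at 137, 96 and 40 bases, and in Cdca8 a CHR at 94 bases overlaps the CCAAT box at 89. No CHR lies in the stretch of Kif20a, which holds 3 CCAAT boxes. Over windows that run from 250 bases before to 50 after the gene start, 31 of the 36 genes had an entry. A CHR occurred in 21 of these 31 (67.7%), against 13.7% of 10893 measured genes and 19.5% of all 27457 windows. A CCAAT box occurred in 24 (77.4%), against 37.4% and 37.7%. Both occurred in 18 (58.1%), against 5.7% of measured genes. Mitotic genes with and without the CHR had median differences of -1.49 and -1.69, so within the list the size of the difference did not follow the motif. A match describes the letters and shows no binding.

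Genes of DNA replication moved the same way with smaller differences. Of 32 members, 22 were called lower and 0 higher, with a median of -0.36. All 32 rose with time in DMSO (median 0.58), and 20 rose in JQ1 (median 0.22), unlike the mitotic genes, of which 3 did. Mcm6, a subunit of the replicative helicase, measured 9.05 and 9.0 in DMSO and 8.23, 8.21 and 8.20 in JQ1 at 6 h, and 9.90, 9.90 and 9.85 against 8.31, 8.34 and 8.30 at 48 h. Its difference was -0.75 ± 0.050. The cyclin gene Ccne1 and the transcription factor gene E2f1 were raised by JQ1 at 6 h (0.41 ± 0.041 and 0.46 ± 0.048) and lowered at 48 h (-0.31 ± 0.037 and -0.29 ± 0.043). The thymidine kinase gene Tk1 was lower at both times, by -0.40 ± 0.063 and -1.32 ± 0.056. An E2F site (TTTNGCGC) occurred in 12 of 28 windows of the list (42.9%), against 2.0% of measured genes, and the median difference was -0.36 with and without it.

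Inhibitors of the cell cycle were split. Of 20 cyclin-dependent kinase inhibitors and p53 targets, 7 were called higher and 6 lower. Cdkn1c, the inhibitor p57, measured 10.52 and 10.61 in DMSO and 10.53, 10.46 and 10.47 in JQ1 at 6 h. At 48 h it measured 9.59, 9.53 and 9.63 in DMSO and 10.89, 10.91 and 10.98 in JQ1. The 6 h groups overlapped and the 48 h groups lay more than 1 log2 unit apart, and the difference was 1.42 ± 0.063. Cdkn1b, the inhibitor p27, had a smaller difference of 0.40 ± 0.068. Sesn1, a stress-induced inhibitor of mTORC1 signalling, was raised at both times (0.89 ± 0.084 and 1.64 ± 0.075), whereas Plk2, a polo-like kinase, was raised at 6 h and lowered at 48 h (difference -1.34 ± 0.055).

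Most immediate early genes were raised by JQ1 at 6 h, and fewer were raised at 48 h. Of 32 immediate early genes, 23 were raised and 4 lowered at 6 h, against 12 raised and 15 lowered at 48 h. The difference was called lower in 21 and higher in 3, with a median of -0.44. Myc, the growth-promoting transcription factor, measured 9.04 and 9.16 in DMSO and 10.59, 10.43 and 10.39 in JQ1 at 6 h. At 48 h it measured 8.38, 8.35 and 8.36 in DMSO and 8.25, 8.01 and 8.07 in JQ1. JQ1 arrays were the higher ones at 6 h and the lower ones at 48 h, without overlap at either time, and the difference was -1.62 ± 0.12 (limma adjusted p = 4.20e-07). Atf3, a stress-induced repressor of the ATF family, had a JQ1 effect of 2.20 ± 0.089 at 6 h and 0.068 ± 0.080 at 48 h (adjusted p = 0.499). Jun, a subunit of AP-1, went from 1.11 ± 0.056 to -0.15 ± 0.050, and Ier3 from 0.27 ± 0.053 to -0.53 ± 0.048. Dusp5, a nuclear phosphatase of ERK, went the other way, with -0.13 ± 0.061 at 6 h (adjusted p = 0.0887) and 1.2 ± 0.055 at 48 h. An AP-1 site (TGANTCA) was in 0 of 23 windows of the list and in 5.5% of measured genes.

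Ribosome biogenesis genes went the same way as Myc. Of 31 genes of ribosome biogenesis and MYC targets, which include Myc itself, 28 were called lower and 0 higher, with a median of -0.40. JQ1 raised 21 and lowered 2 at 6 h, and raised 6 and lowered 17 at 48 h. All 31 fell with time in JQ1 (median -0.65), and 26 fell in DMSO (median -0.29). Rrp12, a ribosome assembly factor, measured 9.53 and 9.61 in DMSO and 10.05, 9.89 and 9.95 in JQ1 at 6 h, and 9.19, 8.94 and 9.02 against 8.49, 8.39 and 8.36 at 48 h. The order of the arms was reversed between the times, with a difference of -1.03 ± 0.096. Heatr1, needed for ribosomal RNA synthesis, had -0.81 ± 0.083, and Rcl1, an enzyme-like factor of ribosomal RNA processing, -0.74 ± 0.063. The structural genes of the ribosome did not share this course: of 14 ribosomal protein genes, 1 was called higher (Rplp0, 0.14 ± 0.050, adjusted p = 0.0385) and 0 lower, and the call of Rplp0 was lost in 10 of 17 alternatives. An E-box (CACGTG) occurred in 12 of 27 windows of ribosome biogenesis genes (44.4%), against 9.0% of measured genes, and the median difference was -0.41 with it and -0.30 without it.

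**Figure D2:**
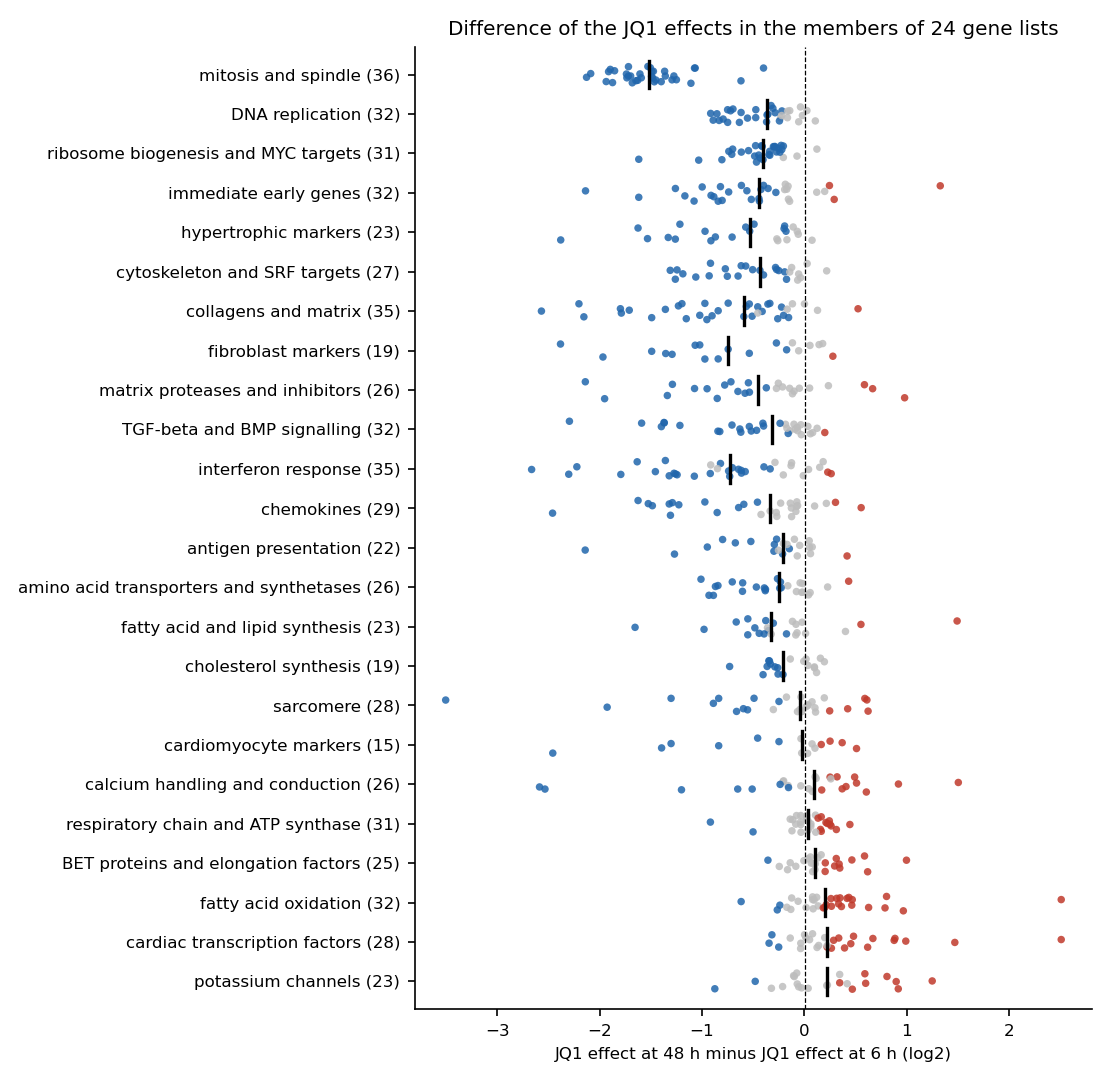
Each point is 1 gene of 24 lists, placed by its difference of JQ1 effects (log2, 48 h minus 6 h). Red points are called higher, blue points called lower and grey points not called, black bars are list medians, the dashed line is the median of all genes (0.0058), and numbers in brackets are genes measured. Mitosis and spindle lies lowest with a median of -1.52, and potassium channels and cardiac transcription factors stand at 0.22 each, which for potassium channels was 0.045 under the mean of all probe sets.

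Hypertrophic markers and targets of the actin-regulated factor SRF also changed their response. Of 23 hypertrophic markers, 16 were called lower and 0 higher, with a median of -0.53. JQ1 raised 10 and lowered 6 of them at 6 h, and raised 0 and lowered 18 at 48 h. Lmcd1, a LIM domain protein of striated muscle, measured 11.56 and 11.21 in DMSO and 13.08, 13.01 and 12.97 in JQ1 at 6 h, then 10.14, 10 and 10.02 against 9.48, 9.20 and 9.25 at 48 h. It was highest in JQ1 at 6 h and lowest in JQ1 at 48 h, and the difference was -2.38 ± 0.14 (limma adjusted p = 5.38e-08). Hbegf, which encodes a ligand of the EGF receptor, measured 8.08 and 7.97 in DMSO and 8.88, 8.85 and 8.82 in JQ1 at 6 h. At 48 h it measured 8.50, 8.54 and 8.55 in DMSO and 7.80, 7.83 and 7.82 in JQ1, a difference of -1.53 ± 0.065. Flnc, the muscle filamin that crosslinks actin at the Z-disc, went from 1.17 ± 0.050 to -0.46 ± 0.045. The natriuretic peptide gene Nppb had 0.070 ± 0.046 at 6 h (adjusted p = 0.229) and -0.90 ± 0.041 at 48 h, a difference of -0.97 ± 0.062. Nppa, at the top of the measuring range (14.16 to 14.65), had a small difference of -0.20 ± 0.049, which did not pass after a further quantile normalization (-0.075, adjusted p = 0.356). The skeletal actin gene Acta1 was raised at 6 h (0.51 ± 0.033) with 0.020 ± 0.030 at 48 h. The slow myosin heavy chain gene Myh7 had nearly the same effect at both times, -0.46 ± 0.045 and -0.39 ± 0.040, with a difference of 0.076 ± 0.060 (adjusted p = 0.365) that passed only after the further quantile normalization (0.19, adjusted p = 0.019).

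Of 27 cytoskeletal genes and SRF targets, 20 were called lower and 0 higher, with a median of -0.43. JQ1 raised 15 and lowered 9 at 6 h, and raised 3 and lowered 19 at 48 h. Actn1, the alpha-actinin of stress fibres, measured 13.14 and 13.07 in DMSO and 13.38, 13.35 and 13.44 in JQ1 at 6 h, and 13.21, 13.21 and 13.18 against 12.46, 12.41 and 12.40 at 48 h. In the DMSO arm it stayed between 13.07 and 13.21 over all 5 arrays, while the JQ1 arm went from above to below it (difference -1.06 ± 0.055). Pdlim7, an adaptor of actin filaments, had -1.24 ± 0.064, and the tubulin gene Tubb2a -1.19 ± 0.053. Myl9, the regulatory light chain of smooth muscle and non-muscle myosin, was lowered at both times, by -0.18 ± 0.050 and -1.44 ± 0.044. A CArG box occurred in 5 of 23 windows (21.7%), against 1.3% of measured genes, and the median difference was -0.19 with it and -0.63 without it.

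Matrix genes were lowered far more at 48 h than at 6 h. Of 35 collagens and matrix proteins, 29 were called lower and 1 higher, with a median of -0.59. The median JQ1 effect was -0.12 at 6 h and -0.94 at 48 h, and 31 of 35 fell with time in the JQ1 arm, against 13 in DMSO. Tnc, tenascin C of injured and remodelling tissue, measured 10.60 and 10.78 in DMSO and 10.37, 10.30 and 10.37 in JQ1 at 6 h. After 48 h of PE it measured 10.36, 10.34 and 10.11 in DMSO and 7.41, 7.34 and 7.32 in JQ1. The 8 arrays other than JQ1 at 48 h lay within 1 log2 unit, and the difference was -2.57 ± 0.098 (limma adjusted p = 3.63e-09). Lox, the enzyme that crosslinks collagen, had 0.15 ± 0.072 at 6 h (adjusted p = 0.0973) and -2.05 ± 0.065 at 48 h. Fbln2, fibulin 2 of elastic fibres, went from -0.33 ± 0.062 to -2.13 ± 0.055, and Postn, periostin, from -0.30 ± 0.040 to -1.79 ± 0.035. Col18a1, the basement membrane collagen that carries endostatin, was the exception called higher (0.52 ± 0.079).

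The gene with the lowest difference of all, Aspn, encodes asporin, a small proteoglycan that binds collagen and TGF-beta. It measured 8.86 and 8.68 in DMSO and 8.20, 7.97 and 8.04 in JQ1 at 6 h, then 9.37, 9.32 and 9.31 against 4.23, 3.73 and 4.04 at 48 h. The JQ1 arrays at 48 h were dim, so the difference of -4.63 ± 0.17 (limma adjusted p = 2.62e-09) may understate the change. Fndc1, a fibronectin domain protein (-2.87 ± 0.10), and Wfdc1, a secreted protease inhibitor domain protein (-2.76 ± 0.073), were likewise lowered at both times and more at 48 h. Itgbl1, a secreted integrin-like protein (-2.63 ± 0.11), was called as lowered only at 48 h, where JQ1 was dim. Fxyd5, a regulator of the sodium pump, had -2.62 ± 0.10. Prl8a9, of the prolactin family (-2.70 ± 0.26), and Glod5, a glyoxalase domain protein (-3.38 ± 0.14), ended dim in JQ1 at 48 h. These were among the 10 lowest differences.

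Fibroblast markers moved with the matrix genes. Of 19, 13 were called lower and 1 higher (Ddr2, a collagen receptor, 0.28 ± 0.076), with a median of -0.74. The log2 of their summed signal was 16.32 to 16.33 in DMSO at 6 h, 16.15 to 16.16 in JQ1 at 6 h, 16.24 to 16.26 in DMSO at 48 h and 15.63 to 15.67 in JQ1 at 48 h. For 15 cardiomyocyte markers it was 17.66 to 17.68, 17.58 to 17.59, 17.66 and 17.49 to 17.52. Mfap5, a microfibril protein, had a difference of -2.38 ± 0.11, and Dpt, dermatopontin, -1.97 ± 0.074. Of 15 smooth muscle and pericyte markers 6 were lower and 2 higher, with a median of -0.037 and single genes from -1.31 to 0.39. Acta2, smooth muscle actin, had -0.65 ± 0.082 and Cnn1, calponin, -1.31 ± 0.087. Myh11, smooth muscle myosin, was among those called higher, a call lost under the mean of its probe sets (0.2, limma adjusted p = 0.146). Postn counts in both the matrix and the fibroblast list. The fibroblast list also holds the collagen genes Col1a1, Col1a2 and Col3a1 and further genes of matrix proteins, so the 2 lists are not independent. The part of fibroblast number or fibroblast state in the matrix result was not tested.

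Signals and enzymes that act on the matrix went the same way. Of 32 genes of TGF-beta and BMP signalling, 18 were called lower and 1 higher, with a median of -0.32. Grem1, a secreted BMP antagonist, measured 9.30 and 9.10 in DMSO and 6.89, 6.92 and 6.89 in JQ1 at 6 h, and 10.44, 10.39 and 10.28 against 5.79, 5.66 and 5.88 at 48 h. It was already clearly lower in JQ1 at 6 h, and the gap widened from -2.30 ± 0.080 to -4.59 ± 0.071, with dim JQ1 arrays at 48 h. The ligand gene Bmp2 had -0.068 ± 0.053 at 6 h (adjusted p = 0.318) and -1.66 ± 0.048 at 48 h. The ligand gene Tgfb2 went from -0.35 ± 0.053 to -1.56 ± 0.048, and Fstl3, which binds activins, from -0.68 ± 0.040 to -1.52 ± 0.036. Bmp4 had a difference of 0.20 ± 0.067 that lost its call in 7 of 17 alternatives, among them the fit without DMSO replicate 2 at 6 h (0.12, adjusted p = 0.176). Of 26 matrix proteases and inhibitors, 14 were called lower and 3 higher. Mmp23, a membrane-type protease (-1.95 ± 0.087), Timp3, a protease inhibitor bound to matrix (-1.07 ± 0.070), and Plat, tissue plasminogen activator (-0.72 ± 0.051), were lower, and Mmp15, a membrane-type protease, was higher (0.98 ± 0.12).

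**Figure D3:**
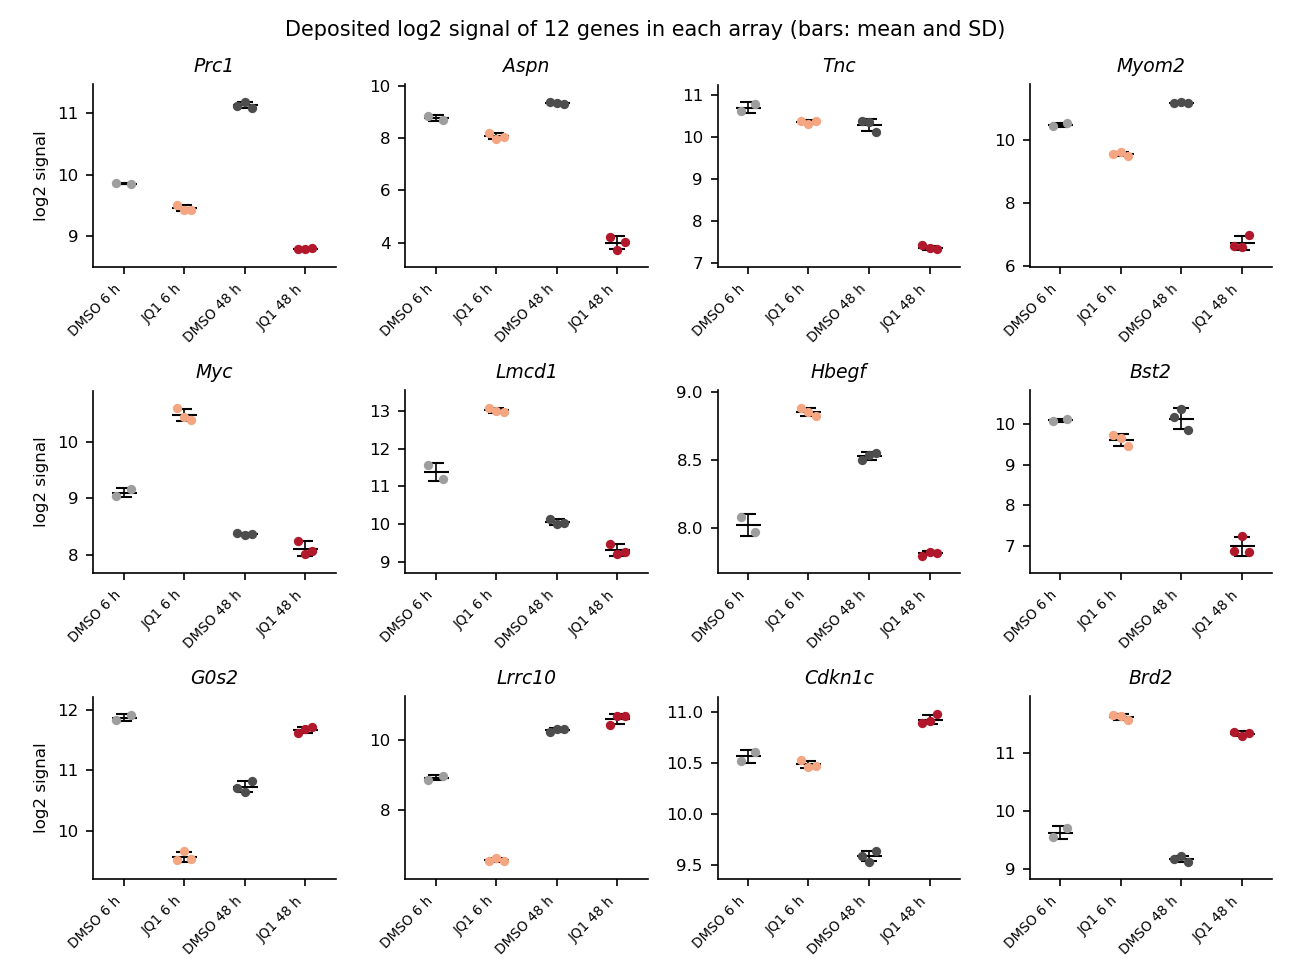
Deposited log2 signal of 12 genes in each of the 11 arrays with PE, as points by group, with the group mean and SD as bars (n = 2 for DMSO at 6 h, n = 3 otherwise). Prc1, Aspn, Tnc, Myom2 and Bst2 are lowest in JQ1 at 48 h. Myc, Lmcd1 and Hbegf are highest in JQ1 at 6 h, G0s2 and Lrrc10 lowest there, and Brd2 is high in JQ1 at both times.

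Interferon-responsive genes were lowered at both times and more at 48 h. Of 35, 23 were called lower and 2 higher, with a median difference of -0.73, a median JQ1 effect of -0.88 at 6 h and -1.61 at 48 h. JQ1 lowered 27 of them at 6 h and 29 at 48 h. Their mean level relative to DMSO at 6 h was -0.98 to -0.68 in the JQ1 arrays at 6 h and -1.66 to -1.59 at 48 h. In the DMSO arrays at 48 h it ran from -0.15 to 0.14, so these arrays differed more from each other in this list than in the mitotic list (1.25 to 1.30). Bst2, tetherin, which holds enveloped virus particles at the cell surface, measured 10.08 and 10.13 in DMSO and 9.73, 9.65 and 9.46 in JQ1 at 6 h. The 48 h values were 10.17, 10.38 and 9.86 in DMSO and 6.87, 7.25 and 6.84 in JQ1. The arms lay within 1 log2 unit at 6 h and more than 2 apart at 48 h, and the difference was -2.66 ± 0.24 (limma adjusted p = 2.85e-06). Ifi27, a small mitochondrial protein, had -1.36 ± 0.067, Ifi44 -1.79 ± 0.20 with dim JQ1 arrays at 48 h, and Ifitm3, a membrane protein that blocks virus entry, -0.58 ± 0.080. Irf1, a transcription factor of interferon responses, was among those called higher (0.26 ± 0.059).

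Ifi27 and Bst2 are shown with the 250 bases before their RefSeq gene start (GRCr8). They are examples of named interferon genes with 2 matches to the interferon-stimulated response element and a fall of over 1 log2 unit at 48 h. The element was searched as TTTCNNTTT on both strands and is in capitals. The other named interferon genes are not printed: Ifi44 also has 2 matches, Ifitm3 has 1 and Irf1 has 0. The stretches are at chr6:128355062-128355311, plus strand, and at chr16:18254968-18255217, minus strand.
Ifi27: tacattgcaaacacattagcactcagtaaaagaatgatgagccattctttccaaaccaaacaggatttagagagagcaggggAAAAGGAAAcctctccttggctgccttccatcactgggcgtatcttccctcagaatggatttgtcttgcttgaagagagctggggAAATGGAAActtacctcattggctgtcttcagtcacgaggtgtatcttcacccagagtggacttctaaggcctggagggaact
Bst2: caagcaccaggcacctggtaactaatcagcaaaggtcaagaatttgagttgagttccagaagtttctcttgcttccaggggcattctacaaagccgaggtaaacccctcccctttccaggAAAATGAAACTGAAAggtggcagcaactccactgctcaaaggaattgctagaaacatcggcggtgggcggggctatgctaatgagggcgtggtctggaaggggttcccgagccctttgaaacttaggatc
The matches of Ifi27 start 168 and 83 bases before the gene start, and those of Bst2, which overlap each other, 130 and 124 bases before it. In the full windows the motif occurred in 15 of 27 interferon genes (55.6%), against 7.9% of measured genes and 11.5% of all windows. The median difference was -0.82 with it and -0.62 without it.

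Chemokines and antigen presentation genes were also lower. Of 29 chemokine genes, 13 were called lower and 2 higher, with a median of -0.33 and 11 dim in all 4 groups. Ccl20, a ligand of CCR6, measured 12.63 and 12.61 in DMSO and 12.25, 12.43 and 12.33 in JQ1 at 6 h, and 12.54, 12.50 and 12.49 against 9.98, 9.49 and 9.83 at 48 h (difference -2.46 ± 0.14). The monocyte attractants Ccl2 and Ccl7 had -1.32 ± 0.058 and -1.62 ± 0.11, and Cxcl16, a transmembrane chemokine, -1.52 ± 0.076. Il6, of the inflammatory cytokines, was lowered by -1.47 ± 0.15 and -3.22 ± 0.14, with dim JQ1 arrays at 48 h, although its list as a whole had 7 lower and 2 higher of 28. Of 22 antigen presentation genes, 11 were called lower and 1 higher. The lower count was 7 without DMSO replicate 1 or 2 at 48 h or DMSO replicate 1 at 6 h. RT1-S3, a class I gene, had -2.14 ± 0.20 and Psmb8, an immunoproteasome subunit, -0.95 ± 0.19. RT1 genes are near-identical copies whose signals the probes may not separate. Leukocyte markers did not show a common shift: 2 of 19 were called lower (Lyz2 at -0.71 ± 0.12 and Adgre1 at -0.48 ± 0.16) and 1 higher (Csf1r at 0.75 ± 0.17). Csf1r was dim in every group but DMSO at 6 h, where it measured 6.10 and 6.66, so the size of its difference is uncertain. The call of Adgre1 was lost in 7 of 17 alternatives, among them the fit without DMSO replicate 1 at 6 h (-0.23, adjusted p = 0.133).

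Biosynthetic genes had smaller, mostly lower differences. Of 26 amino acid transporters and synthetases, 16 were called lower and 1 higher, with a median of -0.25. The transporter genes Slc7a1 (-0.87 ± 0.069), Slc1a5 (-0.89 ± 0.080) and Slc38a1 (-0.84 ± 0.086) were lower and Slc38a2 higher (0.43 ± 0.055). For Slc7a1, 1 further probe set passed in the same direction (-0.64) and another, dim, in the opposite one (0.36). Of 23 genes of fatty acid and lipid synthesis, 12 were lower and 2 higher. Scd, which desaturates stearate, measured 9.32 and 9.18 in DMSO and 8.40, 8.47 and 8.39 in JQ1 at 6 h, and 10.56, 10.68 and 10.65 against 8.02, 8.23 and 8.19 at 48 h. The DMSO arm rose with time and the JQ1 arm did not (difference -1.65 ± 0.086). The desaturase genes Fads1 and Fads2 had -0.67 ± 0.074 and -0.98 ± 0.10, whereas Lpin1, a phosphatidate phosphatase and coactivator, was lowered at 6 h and raised at 48 h (1.49 ± 0.11). Of 19 cholesterol synthesis genes 10 were lower and 0 higher. JQ1 lowered 15 of them at 6 h and all 19 at 48 h, with medians of -0.37 and -0.41, and the median of the differences gene by gene was -0.21.

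Genes that JQ1 lowered at 6 h and that regained or exceeded the DMSO level at 48 h led the higher differences. G0s2, an inhibitor of the lipase ATGL, measured 11.83 and 11.91 in DMSO and 9.52, 9.67 and 9.55 in JQ1 at 6 h. After 48 h of PE it measured 10.72, 10.65 and 10.83 in DMSO and 11.61, 11.69 and 11.71 in JQ1. The arms changed places without overlap at either time, and the difference was 3.22 ± 0.089 (limma adjusted p = 7.08e-10). Lrrc10, a leucine-rich repeat protein of cardiac myocytes, measured 8.87 and 8.98 in DMSO and 6.52, 6.61 and 6.54 in JQ1 at 6 h, and 10.23, 10.33 and 10.31 against 10.45, 10.69 and 10.69 at 48 h. It rose with time in both arms, by 1.36 in DMSO and 4.05 in JQ1, and the difference was 2.69 ± 0.095. Pik3ip1, which restrains PI3 kinase, went from -0.66 ± 0.078 to 1.55 ± 0.070, and Sphkap, an anchor of protein kinase A, from -0.76 ± 0.064 to 1.23 ± 0.057. Asb12, of the SOCS box family, went from -1.15 ± 0.063 to 0.77 ± 0.056.

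Among other genes with a higher difference, some recovered only in part. Stc1, the secreted glycoprotein stanniocalcin, measured 10.58 and 10.55 in DMSO and 7.43, 7.59 and 7.33 in JQ1 at 6 h. The 48 h values were 10.48, 10.41 and 10.47 in DMSO and 9.84, 9.90 and 9.81 in JQ1. DMSO was nearly flat, JQ1 stayed below it at both times, and the difference was 2.52 ± 0.089. Tmem196 (2.40 ± 0.16) and the chromatin helicase gene Hltf (1.71 ± 0.072) also rose with time in JQ1 and stayed below DMSO at 48 h. For Gja5, the atrial and conduction system connexin (1.50 ± 0.10), the gap narrowed as expression fell in DMSO (-1.36 ± 0.078), with no called change in JQ1 (0.15 ± 0.069, adjusted p = 0.0974). Bhlhe41, a transcriptional repressor of the circadian clock, had -1.76 ± 0.064 at 6 h and 0.085 ± 0.057 at 48 h (adjusted p = 0.227). From 6 h to 48 h Bhlhe41 fell in DMSO (-1.07 ± 0.064) and rose in JQ1 (0.78 ± 0.057). Aldoc, an aldolase of glycolysis, and Vamp1, a vesicle fusion protein, had no called effect at 6 h and were raised at 48 h, by 1.62 ± 0.051 and 1.43 ± 0.059. Aldoc fell with time in DMSO (-2.06 ± 0.057) and less in JQ1 (-0.31 ± 0.051), so it did not rise with time in JQ1.

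Fatty acid oxidation was the metabolic list with most higher calls. Of 32 members, 18 were called higher (20.4% of all genes were) and 3 lower, with a median of 0.21. Of these 32, 25 rose with time in the JQ1 arm and 11 in DMSO. Ppargc1a, the coactivator PGC-1alpha of mitochondrial genes, measured 7.62 and 7.51 in DMSO and 5.41, 4.84 and 5.54 in JQ1 at 6 h, where JQ1 was dim. After 48 h of PE it measured 7.78, 8.13 and 7.64 in DMSO and 8.15, 7.48 and 8.55 in JQ1, and the groups overlapped. Its difference was 2.51 ± 0.36 (limma adjusted p = 1.33e-04), with the widest error among the 20 largest differences. Cpt1a, the gate of long-chain fatty acid entry into mitochondria, was raised at both times (0.46 ± 0.075 and 1.25 ± 0.067), as was Hadh, an enzyme of beta-oxidation (0.42 ± 0.045 and 1.05 ± 0.040). Pdk4, which restrains glucose oxidation, had 0.048 ± 0.087 at 6 h (adjusted p = 0.679) and 1.02 ± 0.077 at 48 h. Fabp3, the heart fatty acid binding protein, had -0.37 ± 0.039 at 6 h and 0.044 ± 0.035 at 48 h. Of 31 respiratory chain genes 11 were higher and 2 lower, with a median of 0.039. JQ1 lowered 24 and raised 0 of these 31 at 6 h, and lowered 19 and raised 3 at 48 h. Sdhd, of complex II, went from -0.54 ± 0.034 to -0.099 ± 0.030, and Cox7a1, the muscle form of a complex IV subunit, fell further (difference -0.92 ± 0.096).

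**Figure D4:**
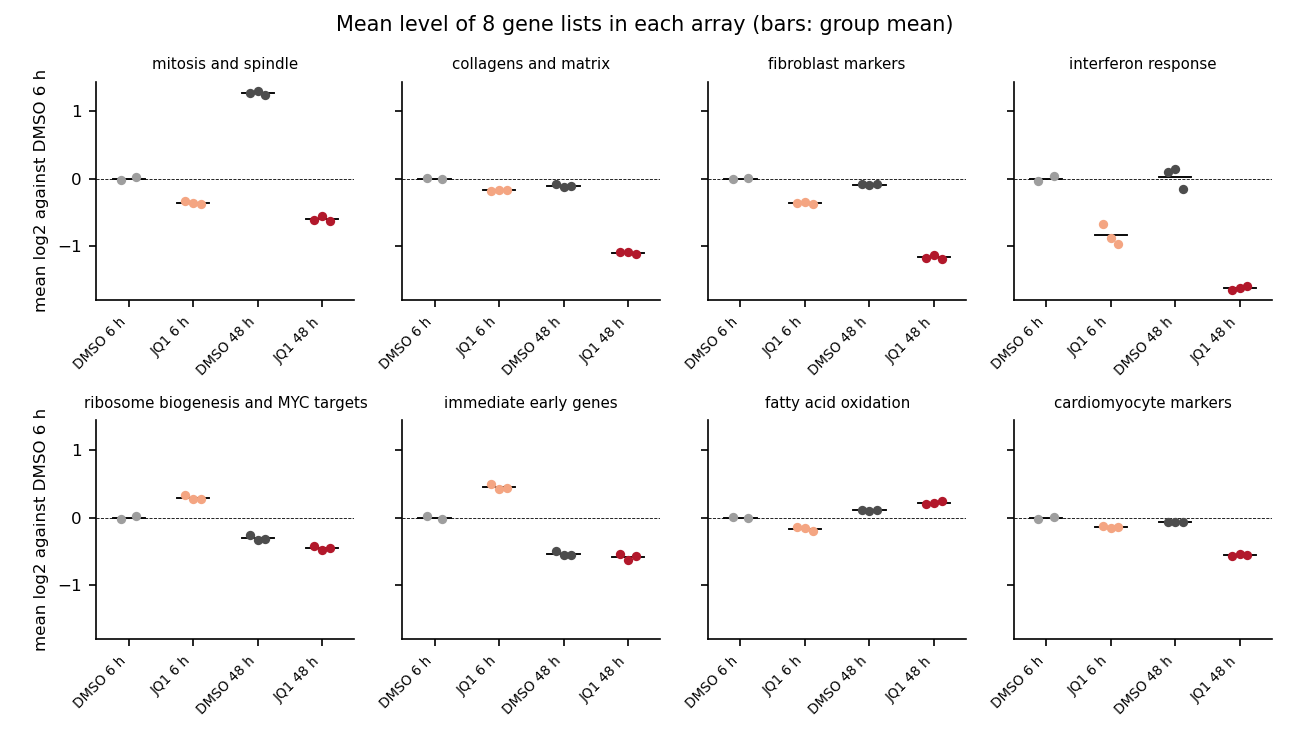
Mean log2 level of 8 gene lists in each array with PE, relative to the mean of the 2 DMSO arrays at 6 h (points are arrays, bars group means). Mitosis and spindle genes stand at 1.25 to 1.30 in DMSO at 48 h and -0.63 to -0.56 in JQ1 at 48 h. Fibroblast markers stand at -1.20 to -1.14 and cardiomyocyte markers at -0.58 to -0.55 in JQ1 at 48 h.

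Cardiac transcription factor genes recovered in several cases. Of 28, 14 were called higher and 3 lower, with a median of 0.22 (Ppargc1a counts in this list too). JQ1 raised 5 and lowered 9 at 6 h, and raised 12 and lowered 7 at 48 h. The median JQ1 effect was 0.048 at 6 h and 0.15 at 48 h. The mean level of the list in JQ1 at 6 h was -0.28 relative to DMSO at 6 h (arrays -0.31 to -0.25). Median and mean thus differed in sign at 6 h. Irx4, a ventricular homeobox factor, measured 11.13 and 11.39 in DMSO and 9.97, 10.02 and 9.98 in JQ1 at 6 h, and 11.15, 11.11 and 11.11 against 11.30, 11.35 and 11.35 at 48 h. The JQ1 arm was below DMSO at 6 h and slightly above it at 48 h (difference 1.47 ± 0.081). Tbx5, a T-box factor of heart development, recovered in part, from -2.07 ± 0.052 to -1.19 ± 0.046. Gata5 went from -1.03 ± 0.074 to -0.14 ± 0.066 (adjusted p = 0.085 at 48 h). Gata6 had no called effect at 6 h and 0.89 ± 0.051 at 48 h. Gata4, a partner of these factors, was lower (-0.32 ± 0.066), a call that the mean of all its probe sets did not keep (-0.038, adjusted p = 0.793).

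Ion channel genes of the myocyte were split. Of 23 potassium channel genes, 8 were called higher and 2 lower, with 8 dim in all 4 groups; the higher count was 5 without DMSO replicate 2 at 6 h. Their median of 0.22 was 0.045 under the mean of all probe sets and 0.15 without DMSO replicate 2 at 48 h. Kcnj11, the pore of the ATP-sensitive channel, went from -2.78 ± 0.062, with dim JQ1 arrays, to -1.53 ± 0.056. Kcnj5 of the acetylcholine-gated channel went from -1.14 ± 0.046 to -0.23 ± 0.041, and Kcnq1 of the slow delayed rectifier from -0.92 ± 0.051 to -0.11 ± 0.046. Its beta subunit gene Kcne1 went the other way, from -1.29 ± 0.17 to -2.17 ± 0.15. Of 26 genes of calcium handling and conduction, 10 were higher and 7 lower. Scn3b, a sodium channel beta subunit, measured 8.34 and 8.38 in DMSO and 8.0, 8.09 and 8.05 in JQ1 at 6 h, and 10.19, 10.18 and 10.14 against 7.27, 7.33 and 7.21 at 48 h. The rise with time seen in DMSO was absent in JQ1 (difference -2.59 ± 0.074). Ryr2, the calcium release channel, went from -0.63 ± 0.043 to -0.12 ± 0.039. For Atp2a2, the calcium pump SERCA2a, the brightest probe set gave 0.25 ± 0.049 and another one -0.20, both called, and the mean of its probe sets -0.0079, so the direction is unsettled.

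Sarcomere genes had no common direction but held some of the lowest differences. Of 28, 10 were called lower and 5 higher, with a median of -0.038. Myom2, a protein of the M-band, measured 10.44 and 10.53 in DMSO and 9.55, 9.61 and 9.48 in JQ1 at 6 h, and 11.19, 11.20 and 11.17 against 6.64, 6.60 and 7.0 at 48 h. All JQ1 arrays lay below all DMSO arrays, and the gap widened from -0.94 ± 0.094 to -4.44 ± 0.084 (difference -3.50 ± 0.13, limma adjusted p = 2.64e-09). Myl4, the atrial light chain (-1.93 ± 0.071), and Tnni3, cardiac troponin I (-1.30 ± 0.054), were lower. Mybpc3, cardiac myosin binding protein C, was higher (0.59 ± 0.053). Of 15 cardiomyocyte markers, 6 were lower and 4 higher, with a median of -0.026 that turned to 0.0091 after a further quantile normalization. Ckmt2, mitochondrial creatine kinase, measured 8.59 and 8.69 in DMSO and 8.65, 8.46 and 8.50 in JQ1 at 6 h, and 8.76, 8.75 and 8.74 against 6.18, 6.04 and 6.35 at 48 h. Only the JQ1 arrays at 48 h stood apart (difference -2.46 ± 0.11), and their mean of 6.19 was dim. Mb, myoglobin, had -1.39 ± 0.092 and Myl3, the ventricular light chain, -0.84 ± 0.049.

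**Figure D5:**
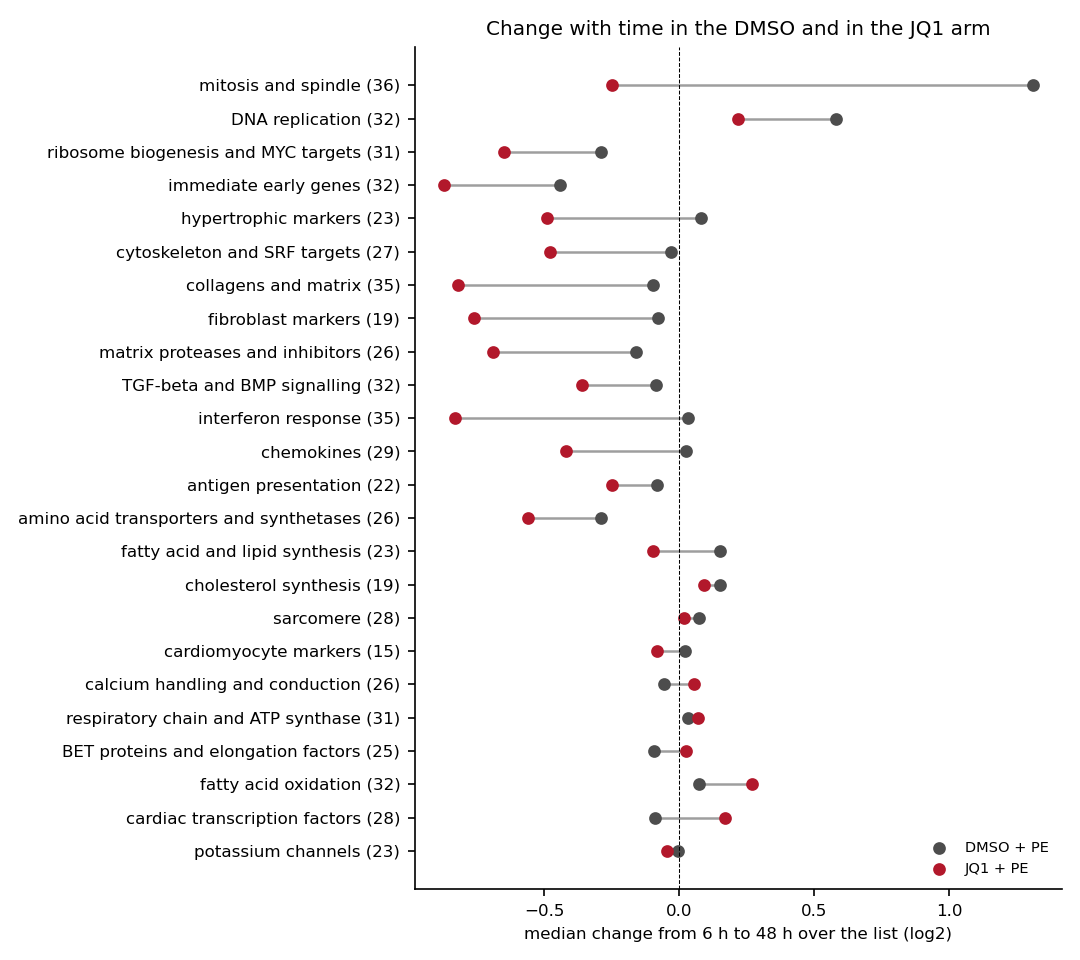
Median change from 6 h to 48 h of PE (log2) over the members of 24 gene lists, in the DMSO arm (grey) and the JQ1 arm (red), with the number of genes measured in brackets. Mitosis and spindle genes changed by 1.31 in DMSO and -0.25 in JQ1, interferon genes by 0.034 and -0.83, and fatty acid oxidation genes by 0.075 and 0.27.

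Genes of the BET and elongation machinery had mostly higher calls, while the difference for Brd2 itself did not pass. Of 25 genes, 10 were called higher (40.0%, against 20.4% of all genes) and 1 lower, with a median of 0.11 that was 0.19 without DMSO replicate 1 at 6 h and 0.085 without replicate 2. JQ1 raised 14 and lowered 9 of them at 6 h, and raised 16 and lowered 3 at 48 h. Brd2 measured 9.54 and 9.70 in DMSO and 11.66, 11.65 and 11.57 in JQ1 at 6 h, and 9.17, 9.22 and 9.12 against 11.37, 11.29 and 11.35 at 48 h. JQ1 arrays lay about 2 log2 units above DMSO arrays each time, and the difference of 0.16 ± 0.073 did not pass (adjusted p = 0.0957). It passed with an intensity trend and robust prior in the fit (0.16, adjusted p = 0.0386) and without DMSO replicate 1 at 6 h (0.24, adjusted p = 0.0213). Hexim1, the inhibitor of P-TEFb, was raised by 1.31 ± 0.045 and 1.63 ± 0.040, a called but smaller difference of 0.31 ± 0.061. Brd3 went from -0.12 ± 0.059 (adjusted p = 0.11) to 0.23 ± 0.053. Mllt3, of the super elongation complex, had the highest difference of the list (1.00 ± 0.11), and Ell2, of the same complex, was lower (-0.36 ± 0.083), a call lost under the mean of its probe sets (-0.21, adjusted p = 0.087). Histone genes were raised each time, 7 of 8 at 6 h and 8 of 8 at 48 h. Their difference was called higher in 1 and lower in 3, with a median of -0.012. H3c1 measured 5.52 and 5.84 in DMSO and 7.81, 7.91 and 8.02 in JQ1 at 6 h. At 48 h it measured 6.05, 6.02 and 5.83 in DMSO and 7.71, 7.48 and 7.51 in JQ1. The DMSO values of H3c1 were dim at both times, so the size of its difference is uncertain. Its difference of -0.64 ± 0.17 lost its call without DMSO replicate 1 at 6 h (-0.48, adjusted p = 0.0576), and H1f4, a linker histone gene, was higher (0.85 ± 0.17).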

How the data were processed

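The authors deposited log2 signals for each probe set of an Affymetrix rat array, 1 column per sample. How they summarized and normalized them is not given in the sources used here. Limma is named in the submitters' processing notes, with no role or version. Of 20223 probe sets, 18510 had 1 gene symbol, updated through the RefSeq gene table of GRCr8, which left 13184 genes, and 3797 of them had several probe sets, of which the brightest was kept. All 14 arrays entered 1 model with a mean per group (lmFit and eBayes, limma 3.58.1, R 4.3.3, 9 residual degrees of freedom), with two-sided p-values adjusted by Benjamini-Hochberg over all genes. The fit was tested on simulated data. The number of arrays limits the precision. The members and the 48 gene lists (1191 of 1369 entries measured) were chosen with earlier results of these data known, and the 24 lists plotted, and the further lists named, were chosen after their values were seen. No set test was run, and list counts are read against the shares of all genes printed in the report. Genes named are the 10 highest and 10 lowest differences, the 4 largest of each course called at both times (2 for 1 time), for each described list up to 4 called members of its commoner direction and 1 of the opposite by lowest adjusted p, and a panel of known BET and hypertrophy genes. Same-numbered arrays did not deviate together as a set (15 pairs, r of -0.267 to 0.155, median -0.039), and no pairing was assumed. Deviations from the means of so few arrays cancel within a group, so this check cannot exclude a pairing. Promoter sequences come from RefSeq (GRCr8). Alternatives tried were the normalization, dim gene filters, the probe set rule, the fit's prior, the samples fitted, a replicate block and leaving out each array.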

Additional observations from a re-analysis of the deposited data

Results flagged for a closer look

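The difference of JQ1 effects is itself a test of whether the same contrast differs between 2 times, and it passed in 2695 genes with a higher and 2416 with a lower value (limma, adjusted p under 0.05). Of the genes whose JQ1 effect was called in opposite directions at 6 h and 48 h, those with the largest differences are given. From raised to lowered these were Lmcd1 (-2.38), Mmp3 (-2.14), Pxdc1 (-2.02) and Penk (-2.0). Mmp3, a matrix protease also called stromelysin 1, had dim means in DMSO at 6 h and in JQ1 at 48 h. Penk, the precursor of enkephalins, measured 12.06 and 12.11 in DMSO and 12.71, 12.73 and 12.65 in JQ1 at 6 h, and 12.02, 11.92 and 11.90 against 10.67, 10.50 and 10.49 at 48 h. Pxdc1 measured 9.27 and 9.28 against 9.53, 9.45 and 9.43 at 6 h, and 10.41, 10.42 and 10.32 against 8.50, 8.58 and 8.57 at 48 h. From lowered to raised they were G0s2 (3.22), Lrrc10 (2.69), Pik3ip1 (2.21) and Sphkap (1.99). The cause was not tested for any of them.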

How the results depend on the processing

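The number of called genes was 5111, and 4618 to 5391 over 19 alternatives that kept the threshold (fewest without DMSO replicate 2 at 6 h). It was 3719 at a threshold of 0.01 and 457 for differences of at least 1 log2 unit. Of the 5111, 3479 (68.1%) were called in the same direction in all 17 alternatives that kept every gene. Under the mean of all probe sets, 4 shared calls had the opposite direction, and 0 in the other alternatives. No pairing by replicate number was assumed, and with the numbers as a replicate block 4865 genes were called. Centring the arrays gave 828 genes raised at both times and more at 48 h, against 510, and leaving out single arrays 354 to 482. Leaving out single arrays gave 5 to 10 higher potassium channel genes (8 with all arrays) and 7 to 12 lower antigen presentation genes (11 with all arrays). The other list counts given for a list's main direction stayed within 1.5 times. Reversed values were the median of the cardiomyocyte markers after a further quantile normalization (0.0091, against -0.026) and Atp2a2 under the mean of its probe sets (-0.0079, against 0.25). Of 245 named genes with a call, 227 kept it throughout, 17 lost it in at least 1 alternative and 1 reversed. The 2 DMSO arrays at 6 h weigh most in each value. Of called genes, 660 had a dim group and 293 were dim in all 4 groups, where the size is uncertain.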

Other observations

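The lists that follow were called in both directions, and their counts are to be read against 20.4% higher and 18.3% lower over all genes. Of 31 complement and coagulation genes, 11 were lower and 4 higher, with 14 dim in all 4 groups. C1s and C1r, the proteases of the first complement component, had differences of -1.49 ± 0.073 and -1.29 ± 0.079, and Serping1, their inhibitor, -1.93 ± 0.10. Cd55, which protects cells from complement, was raised by JQ1 at 6 h (0.98 ± 0.067) and lowered at 48 h (-0.63 ± 0.060). Tfpi, the inhibitor of the tissue factor pathway, was higher (0.91 ± 0.056). Of 26 genes of IGF and EGF signalling, 12 were lower and 2 higher. Igfbp3, an IGF binding protein, went from -0.96 ± 0.077 to -2.21 ± 0.069, and Irs2, an insulin receptor substrate, from 0.57 ± 0.053 to -0.075 ± 0.047 (adjusted p = 0.195).

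Of 31 genes of the unfolded protein and integrated stress responses, 11 were lower and 2 higher. Atf4, their central transcription factor, was raised at 6 h (0.19 ± 0.046) and lowered at 48 h (-0.33 ± 0.041), and Chac1, which degrades glutathione, was raised less at 48 h (0.21 ± 0.059) than at 6 h (0.95 ± 0.066). Of 29 NRF2 antioxidant genes, 7 were higher and 11 lower. Srxn1, sulfiredoxin, measured 9.45 and 9.60 in DMSO and 11.24, 11.06 and 11.09 in JQ1 at 6 h, and 9.30, 9.19 and 9.12 against 10.12, 10.04 and 10.07 at 48 h. It was higher in JQ1 at both times, by 1.6 ± 0.068 and 0.87 ± 0.060. Of 18 circadian clock genes, 4 were higher and 5 lower. The core clock gene Bmal1 went from 0.63 ± 0.054 to -0.25 ± 0.048. Of 32 chromatin modifier genes, 7 were higher (21.9%) and 4 lower (12.5%), near or below the shares of all genes, and Ezh2, the H3K27 methyltransferase, went from 0.78 ± 0.066 to -0.30 ± 0.059. Of 34 Wnt and Notch genes, 6 were higher (17.6%) and 4 lower (11.8%), below the shares of all genes. Sfrp2, a secreted Wnt modulator, went from -1.59 ± 0.12 to -3.31 ± 0.11 and Dkk3, a secreted protein of the dickkopf family, from -0.21 ± 0.038 to 0.86 ± 0.034.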
